A study of Mus musculus with 16 samples.

Results

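The output arm of the circadian clock was examined in mouse quadriceps through 6 transcription factor genes: Dbp, Tef, Hlf, Nfil3, Bhlhe40 and Bhlhe41. They were chosen by name, as factors that carry clock time to downstream genes, with earlier results of these data known. Their probes were found by matching probe accessions to gene symbols. All 6 were on the array, with 10 probes of 41174, among 17178 genes that had a symbol. The samples were 16 quadriceps in 4 groups of 4, with 1 array per sample. The first group, KO Dex, was KLF15_KO muscle 8 h after 1 intraperitoneal injection of 2 mg/kg dexamethasone (Dex), a synthetic glucocorticoid, and the second, KO vehicle, was KLF15_KO muscle 8 h after vehicle alone. The third, WT Dex, and the fourth, WT vehicle, were WT muscle 8 h after the same injections. Klf15 encodes a zinc-finger transcription factor. No source used here gives strain, age, sex, the kind of knockout allele or the clock hour of sampling. All samples carried the same 8 h label, so the values are levels at 1 time after injection and hold no phase or amplitude of a rhythm.

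Dbp, Tef and Hlf encode the PAR bZIP family, activators that bind a DNA element called the D-box. Nfil3, also known as E4BP4, binds the same element and represses from it. Bhlhe40 and Bhlhe41, also known as Dec1 and Dec2, are repressors that bind E-boxes, the element through which the core activators Clock and Bmal1 (gene symbol Arntl) drive Dbp and other output genes. In skeletal muscle, as in other tissues, these factors oscillate daily and feed into metabolic genes, and glucocorticoids are a known systemic timing signal for peripheral clocks.

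The 250 bases upstream of each start site were read from the RefSeq promoter table (assembly GRCm38.p6) to show which clock elements the changing factors carry there. The table held 6 windows for 5 of the 6 genes; Bhlhe40 had none. The windows below, 5′ to 3′ on the strand of the gene, are those of the 4 genes with called changes in both genotypes; capitals mark the E-box CACGTG.
Dbp, chr7:45704997-45705246, plus strand: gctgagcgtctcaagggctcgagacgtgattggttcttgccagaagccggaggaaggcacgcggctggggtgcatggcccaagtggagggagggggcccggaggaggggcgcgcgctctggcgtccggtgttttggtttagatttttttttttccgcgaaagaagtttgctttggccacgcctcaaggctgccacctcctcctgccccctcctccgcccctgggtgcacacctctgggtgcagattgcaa
Hlf, chr11:90390918-90391167, minus strand: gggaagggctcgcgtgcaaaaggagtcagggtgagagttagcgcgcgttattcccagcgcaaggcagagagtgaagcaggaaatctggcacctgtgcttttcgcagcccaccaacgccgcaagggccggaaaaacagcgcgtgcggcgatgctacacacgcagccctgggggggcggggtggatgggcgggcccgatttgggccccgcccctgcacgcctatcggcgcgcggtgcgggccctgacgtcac
Nfil3, chr13:52981040-52981289, minus strand: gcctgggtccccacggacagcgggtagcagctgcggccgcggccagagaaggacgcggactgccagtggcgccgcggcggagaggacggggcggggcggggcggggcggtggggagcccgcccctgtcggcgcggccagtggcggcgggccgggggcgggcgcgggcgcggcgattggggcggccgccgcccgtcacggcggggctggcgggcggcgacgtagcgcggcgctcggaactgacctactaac
Bhlhe41, chr6:145865421-145865670, minus strand: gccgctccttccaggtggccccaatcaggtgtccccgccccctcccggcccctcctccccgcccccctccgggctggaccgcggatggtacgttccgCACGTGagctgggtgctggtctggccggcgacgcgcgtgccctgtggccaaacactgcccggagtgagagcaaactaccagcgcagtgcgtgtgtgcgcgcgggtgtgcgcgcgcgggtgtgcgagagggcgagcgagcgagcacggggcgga

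Tef had 2 annotated starts with an E-box upstream of each, and the 40 bases around each box are shown, again with CACGTG in capitals.
Tef, upstream start, chr15:81802529-81802568, plus strand: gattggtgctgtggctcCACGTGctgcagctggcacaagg
Tef, downstream start, chr15:81811259-81811298, plus strand: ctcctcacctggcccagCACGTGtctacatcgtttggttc

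Counted from the start site, the box began at -127 and -138 for the 2 Tef starts and at -153 for Bhlhe41. CACGTG, which is its own reverse complement, was found in 6.02% of 32851 promoter windows of the same length. The windows of Dbp, Hlf and Nfil3 did not hold these letters, nor did any of the 6 windows hold the D-box TTATGTAA, which was in 0.819% of all windows. Both strands were searched. A glucocorticoid half-site, AGAACA, was in the downstream Tef window and in 16.1% of all windows, and the half-site AGGTCA of the REV-ERB and ROR receptors lay on the reverse strand of the Nfil3 window, at -12, and occurred in 14.0% of all windows. These are matches of letters only, and binding was not measured.

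Levels are given as log2 of the processed intensity relative to the 75th percentile of the same array, so 1 unit is a doubling and 0 is the level below which 75% of the probes lie. That percentile ranged from 536.7 to 1132.9 intensity units over the 16 arrays, 65.7% to 80.2% of probes were well above background, and the correlation between arrays of a group was 0.936 to 0.990. The number of arrays limits the precision. Changes were tested with limma over 32403 probes, with Benjamini-Hochberg adjusted p-values, and called at an adjusted p under 0.05. Klf15 was lower in KO than in WT muscle (log2 difference -3.80 after dexamethasone and -3.97 after vehicle), and all 6 muscle markers were detected on every array. The Klf15 probe was still well above background on all 16 arrays. It rose with dexamethasone by 1.18 in KO (adjusted p 0.0098) and by 1.01 in WT (adjusted p 0.021). The glucocorticoid target Fkbp5 rose with dexamethasone by 2.74 in KO and 2.98 in WT. Markers of neutrophils stood apart on 2 arrays, with medians over 9 genes of 5.72 (KO Dex replicate 1) and 7.11 (WT Dex replicate 3) above the mean of all arrays, against 0.98 on the next highest, and results without both are given where they matter. All 10 probes passed the filter on dim probes and none was saturated. In whole muscle, fewer cells of a type and less RNA per cell cannot be told apart.

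After dexamethasone Nfil3 was higher and Dbp, Hlf and Bhlhe41 were lower, in KO and in WT muscle alike by separate tests. Bhlhe40 passed the test as lower in KO and did not pass in WT, and Tef passed in neither. In KO 7 of the 10 probes were called, 2 higher and 5 lower, where 5.20% of all probes were called higher and 5.21% lower. In WT 6 of the 10 were called, 2 higher and 4 lower, where 5.35% of all probes were called higher and 6.60% lower. The median change of the 6 genes was -0.47 in KO, beside 0.04 over all genes tested, and -0.40 in WT, beside -0.04. The levels on each array are shown by probe.

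**Figure D1:**
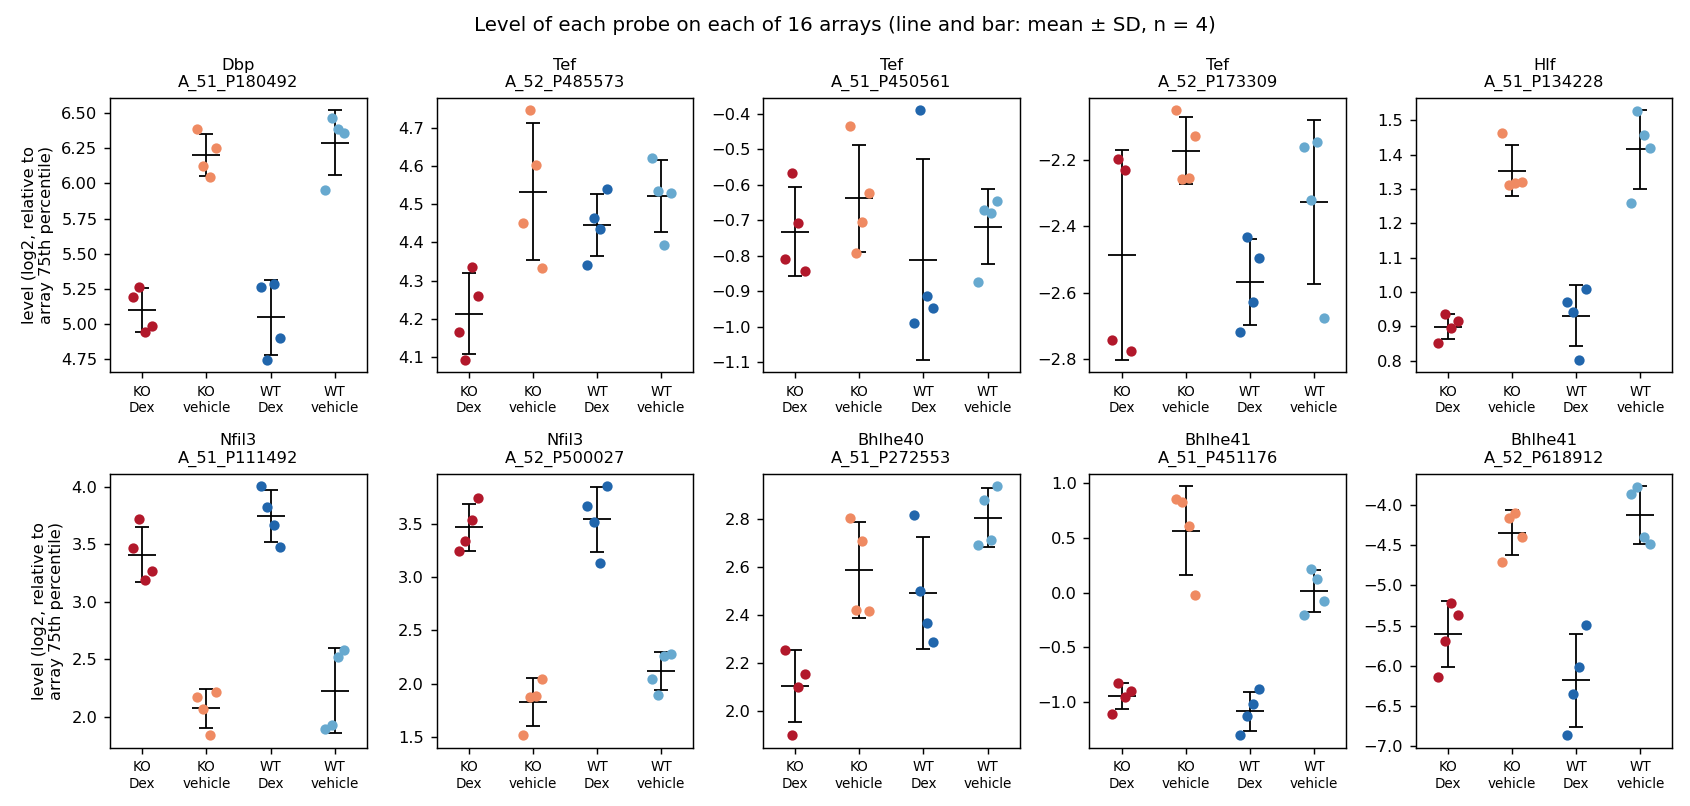
Level of each of the 10 probes on the 16 arrays, as log2 relative to the array's 75th percentile, in KO Dex, KO vehicle, WT Dex and WT vehicle. Points are arrays, and the line and bar are the mean and SD of 4 arrays. Each panel has its own axis. Both Nfil3 probes lie higher on every dexamethasone array than on any vehicle array, and Dbp, Hlf and both Bhlhe41 probes lie lower.

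Dbp, a D-box activator known for a strong daily rhythm in many tissues, read 5.20, 5.27, 4.95 and 4.99 on the KO Dex arrays, against 6.39, 6.13, 6.05 and 6.25 on the KO vehicle arrays. In WT it read 5.26, 4.75, 5.28 and 4.90 after dexamethasone, against 5.95, 6.46, 6.39 and 6.36 after vehicle. All 8 dexamethasone arrays lay below all 8 vehicle arrays, and groups with the same treatment overlapped. Groups did not overlap for 15.8% of all probes in the KO comparison and for 18.2% in the WT comparison. The change was -1.10 in KO (SE 0.15, 2.15-fold lower, adjusted p 0.00031) and -1.24 in WT (SE 0.15, 2.36-fold lower, adjusted p 0.00016). Among 15178 genes ordered by their change, Dbp was the 260th lowest in KO and the 701st lowest in WT. Within single slides, the difference was -1.06, -1.06 and -1.12 in KO and -1.61 in WT.

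Hlf, a second PAR bZIP activator, read 0.85, 0.94, 0.90 and 0.92 on the KO Dex arrays, against 1.46, 1.31, 1.32 and 1.32 on the KO vehicle arrays. In WT muscle the values were 0.97, 0.94, 0.80 and 1.01 after dexamethasone, against 1.26, 1.53, 1.46 and 1.42 after vehicle. Here too the dexamethasone arrays of both genotypes lay below every vehicle array, with a narrower gap than for Dbp. The log2 change was -0.45 in KO (SE 0.08, 1.37-fold lower, adjusted p 0.0020) and -0.48 in WT (SE 0.08, adjusted p 0.0013). In WT the call was lost with slide as a fixed block (-0.45, adjusted p 0.087), which leaves 2 of the 4 WT Dex arrays without weight because they lay alone on a slide. The WT call was also lost with arrays scaled to their median (-0.24, adjusted p 0.28). With normexp the call was lost in WT and in KO (adjusted p 0.15 in KO).

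Tef, the third PAR bZIP gene, had 3 probes, none of which was called in either genotype. Its brightest probe, A_52_P485573, read 4.16, 4.09, 4.34 and 4.26 on the KO Dex arrays, against 4.45, 4.75, 4.60 and 4.33 on the KO vehicle arrays. The WT values were 4.34, 4.46, 4.44 and 4.54 after dexamethasone, against 4.62, 4.54, 4.39 and 4.53 after vehicle. The KO groups touched at 1 array each, and the WT groups were intermixed. In KO the change was -0.32 (SE 0.10, adjusted p 0.054), with a 95% interval from -0.53 to -0.11. In WT it was -0.08 (SE 0.10, adjusted p 0.67), with an interval from -0.29 to 0.14. The KO value passed the threshold with quantile normalization (-0.39, adjusted p 0.025), with the deposited values (-0.41, adjusted p 0.0053), with slide as a random block (-0.31, adjusted p 0.0050) and without KO vehicle replicate 4 (-0.39, adjusted p 0.023). Averaged over genotypes, the brightest probe changed by -0.20 (interval -0.35 to -0.05, adjusted p 0.066) and was not called. This average gained a call in 4 of 12 alternatives (lowest adjusted p 0.0041) and in 1 of 16 runs without 1 array (adjusted p 0.030). The other Tef probes changed by -0.09 and -0.31 in KO, and by -0.09 and -0.24 in WT.

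Nfil3, the repressor at the D-box, moved the other way. Probe A_51_P111492 read 3.47, 3.72, 3.19 and 3.26 on the KO Dex arrays, against 2.17, 2.07, 1.84 and 2.21 on the KO vehicle arrays. After dexamethasone the WT arrays read 4.01, 3.82, 3.67 and 3.48, against 1.89, 1.92, 2.51 and 2.58 after vehicle. Every dexamethasone array was above every vehicle array, in both genotypes. Nfil3 was 2.53-fold higher in KO (log2 change 1.34, SE 0.18, adjusted p 0.00036) and 2.86-fold higher in WT (1.52, SE 0.18, adjusted p 0.00017).

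The second Nfil3 probe, A_52_P500027, read 3.25, 3.34, 3.54 and 3.75 on the KO Dex arrays, against 1.52, 1.87, 1.88 and 2.05 on the KO vehicle arrays. In WT it read 3.67, 3.52, 3.13 and 3.86 after dexamethasone, against 2.04, 1.90, 2.26 and 2.28 after vehicle. Its dexamethasone arrays again all lay above its vehicle arrays, with changes of 1.64 in KO (adjusted p 3.88e-05) and 1.42 in WT (adjusted p 0.00015). By the first probe, Nfil3 was the 228th highest of 15178 genes in KO and the 135th highest in WT. Nfil3 is also expressed in immune cells; without the 2 arrays with raised neutrophil markers its change was 1.32 in KO and 1.54 in WT, both called. With normexp the second probe gave 1.27 in WT and was not called (adjusted p 0.052).

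Bhlhe41 (Dec2), a repressor at E-boxes, fell with both of its probes. Probe A_51_P451176 read -1.11, -0.83, -0.95 and -0.90 on the KO Dex arrays, against 0.86, 0.82, 0.61 and -0.02 on the KO vehicle arrays. In WT the values were -1.31, -1.14, -1.02 and -0.88 after dexamethasone, against -0.21, 0.21, 0.12 and -0.08 after vehicle. All dexamethasone arrays were below all vehicle arrays; of the KO vehicle arrays, replicate 4 lay among the WT vehicle values and the others above them. The fall was 2.86-fold in KO (log2 change -1.51, SE 0.18, adjusted p 9.57e-05), the 95th lowest of 15178 genes, and 2.14-fold in WT (-1.10, SE 0.18, adjusted p 0.0012), the 959th lowest. With slide as a fixed block the WT change was -0.998 (adjusted p 0.092).

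The second Bhlhe41 probe, A_52_P618912, was dim, and 2 of the 4 WT Dex arrays were not well above background. It read -6.14, -5.69, -5.22 and -5.37 on the KO Dex arrays, against -4.71, -4.17, -4.11 and -4.41 on the KO vehicle arrays. The WT values were -6.86, -6.35, -6.02 and -5.50 after dexamethasone, against -3.86, -3.78, -4.40 and -4.48 after vehicle. Its groups did not overlap either, and it fell by 1.26 in KO (adjusted p 0.011) and by 2.05 in WT (adjusted p 0.00045). In the deposited values its changes were -0.64 in KO and -0.81 in WT, and with normexp -0.01 and -0.08, the last pair not called.

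Bhlhe40 (Dec1), the related E-box repressor, changed less. It read 2.26, 1.90, 2.10 and 2.16 on the KO Dex arrays, against 2.80, 2.42, 2.71 and 2.42 on the KO vehicle arrays. In WT it read 2.81, 2.50, 2.37 and 2.29 after dexamethasone, against 2.69, 2.88, 2.71 and 2.94 after vehicle. The KO groups did not overlap, while WT Dex replicate 1 lay among the WT vehicle arrays. The change was -0.48 in KO (SE 0.13, adjusted p 0.032) and -0.31 in WT (SE 0.13, adjusted p 0.15). The KO call was lost without any 1 of KO Dex replicates 2, 3 and 4 or KO vehicle replicates 1 and 3 (-0.50 to -0.41, adjusted p 0.058 to 0.10), and with slide as a fixed block (-0.54, adjusted p 0.060). Averaged over genotypes, Bhlhe40 changed by -0.40 (adjusted p 0.0081), one of 7 of the 10 probes called in that average, where 18.1% of all probes were called.

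**Figure D2:**
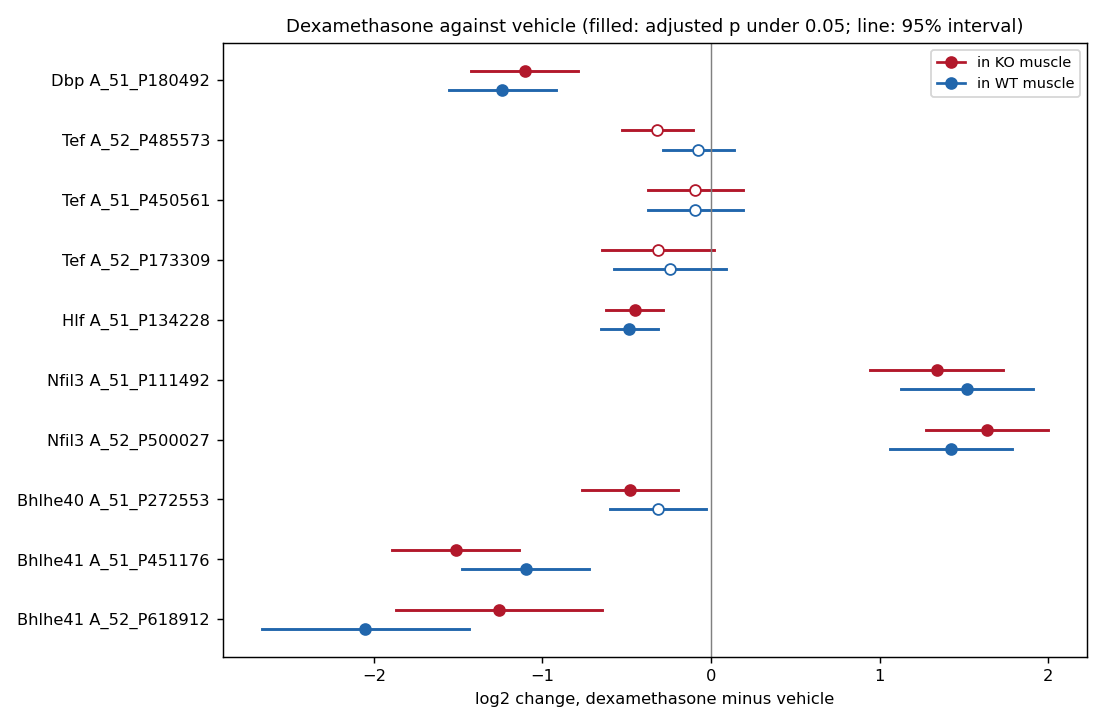
Log2 change with dexamethasone for each probe, dexamethasone minus vehicle, in KO and in WT muscle. Points are limma estimates, filled where the adjusted p was under 0.05, and lines are 95% intervals. The Nfil3 probes lie between 1.34 and 1.64, Dbp at -1.10 and -1.24, and the Tef probes between -0.32 and -0.08.

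Several slides held both treatments of a genotype: slides 4, 6 and 7 in KO, and slide 5 in WT. On each of these slides every gene's brightest probe had the sign of its overall change. Nfil3 differed by 1.26, 1.43 and 1.55 within the KO slides and by 1.25 within the WT slide. For Bhlhe41 the differences were -1.09, -1.50 and -1.68 in KO and -1.06 in WT. Bhlhe40 varied most relative to its size, from -0.16 to -0.90 within the KO slides.

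**Figure D3:**
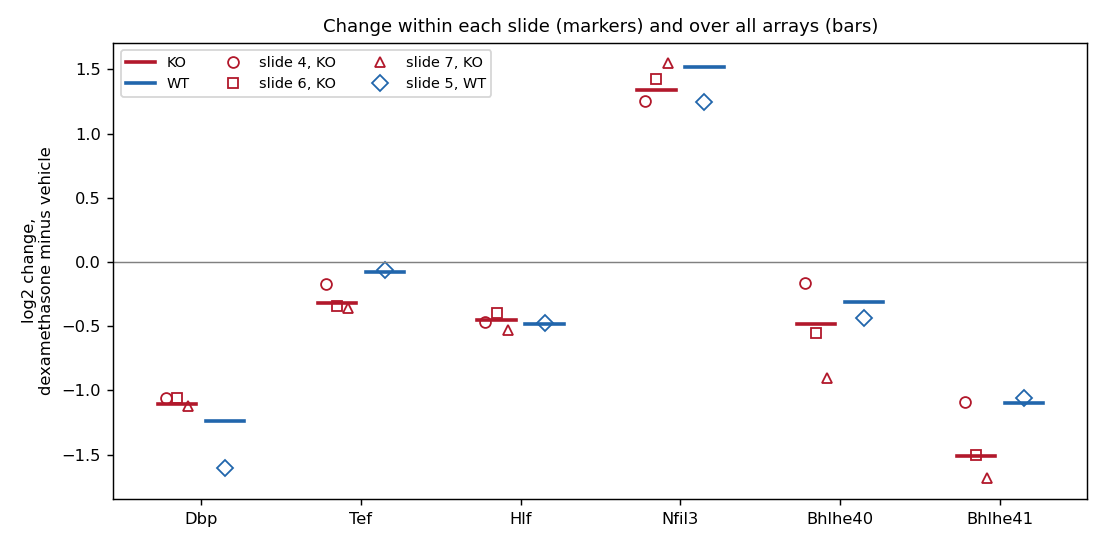
Log2 change with dexamethasone minus vehicle for the brightest probe of each gene, within single slides (markers, 1 array against 1 array) and over all arrays (bars), in KO and WT. Dbp lies at -1.06, -1.06 and -1.12 within the 3 KO slides, and Bhlhe40 is spread from -0.16 to -0.90.

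Whether the levels or the response depended on Klf15 was asked by setting KO against WT. After dexamethasone none of the 10 probes was called, where 2.79% of all probes were called. At an unadjusted p under 0.05 there were 2 of the 10, beside 15.4% of all probes. The 2 were the Tef probe A_52_P485573 (-0.23, 95% interval -0.44 to -0.02, adjusted p 0.27) and Bhlhe40 (-0.39, interval -0.67 to -0.10, adjusted p 0.16). Both had KO Dex arrays that lay below all WT Dex arrays, and 9.04% of all probes had groups that did not overlap in this comparison. Within the 1 slide that held both genotypes after dexamethasone, the differences were -0.20 for Tef and -0.19 for Bhlhe40. For Dbp the KO and WT means after dexamethasone were 5.10 ± 0.16 and 5.05 ± 0.27 (SD, n = 4 each), a difference of 0.05 with an interval from -0.27 to 0.37. For Hlf the difference was -0.03 (interval -0.20 to 0.14). Nfil3 differed by -0.33 (interval -0.73 to 0.06) and -0.08 (interval -0.44 to 0.29) by its 2 probes. Bhlhe41 differed by 0.14 (interval -0.24 to 0.52) with its brighter probe and by 0.58 (interval -0.035 to 1.19) with its dim probe.

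After vehicle, too, 0 of the 10 probes were called, where 0.235% of all probes were called. At an unadjusted p under 0.05 there was 1 of the 10, beside 7.7% of all probes. It was the brighter Bhlhe41 probe, with 0.57 ± 0.41 in KO and 0.01 ± 0.19 in WT (SD, n = 4 each), a difference of 0.56 (interval 0.18 to 0.93, adjusted p 0.35). Without KO vehicle replicate 4 the difference was 0.75 (adjusted p 0.034). Within slides it was -0.23 on slide 4, which held that replicate, and 0.81 and 0.74 on slides 6 and 7. The dim Bhlhe41 probe gave -0.22 (interval -0.83 to 0.40), so the probes disagreed in sign. Dbp differed by -0.09 (interval -0.40 to 0.23) and Hlf by -0.06 (interval -0.23 to 0.11). Averaged over treatments, 0 of 10 probes were called, where 1.62% of all probes were called, and 2 of the 10 had an unadjusted p under 0.05, beside 12.1% of all probes. The 2 were Bhlhe40 (-0.30, interval -0.50 to -0.10, adjusted p 0.15) and the brighter Bhlhe41 probe (0.35, interval 0.08 to 0.61, adjusted p 0.23).

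The test of whether the dexamethasone change differed between genotypes called 0 of 32403 probes, 0% of all. With an unadjusted p under 0.05 there were 4196 probes (12.9%), none of them a clock output probe. With slide as a random block 715 probes were called, and 0 of the 10. The difference of the changes, KO minus WT, was 0.14 for Dbp (95% interval -0.31 to 0.58), 0.03 for Hlf (-0.21 to 0.27) and -0.24 for the brightest Tef probe (-0.54 to 0.05). For Nfil3 it was -0.18 (-0.73 to 0.38) and 0.21 (-0.30 to 0.73) by its 2 probes, and for Bhlhe40 -0.17 (-0.57 to 0.23). Bhlhe41 gave -0.41 (-0.95 to 0.12) and 0.79 (-0.07 to 1.66).

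**Figure D4:**
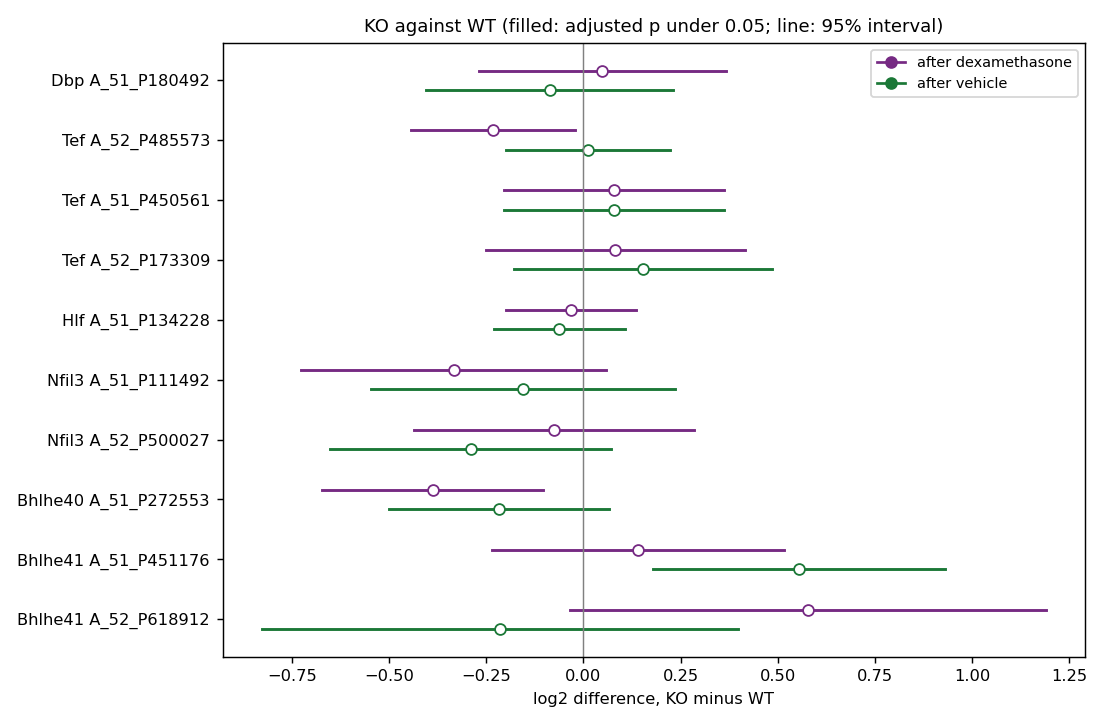
Log2 difference between KO and WT for each probe, KO minus WT, after dexamethasone and after vehicle. Points are limma estimates, all open because no adjusted p was under 0.05, and lines are 95% intervals. The interval of the brighter Bhlhe41 probe after vehicle (0.18 to 0.93) does not hold 0. After dexamethasone those of Bhlhe40 (-0.67 to -0.10) and the Tef probe A_52_P485573 (-0.44 to -0.02) do not hold 0 either.

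The rest of the clock was read from a list of 17 core loop genes, all measured. In KO 0 rose and 3 fell with dexamethasone, where 5.50% of all genes were called higher and 6.02% lower. In WT 1 rose and 3 fell, where 6.19% of all genes were called higher and 6.21% lower. The list's median change was -0.09 in KO, beside 0.04 over all genes, and 0.15 in WT, beside -0.04. These counts use the brightest probe of a gene. Of the other probes of the list, 1 was called: Clock, which encodes the partner of Bmal1, was higher in KO by 0.80 with probe A_52_P161365 (adjusted p 0.0011), and by 0.29 in WT, not called. The brightest Clock probe gave 0.18 in KO and 0.22 in WT and the last of the 3 gave 0.10 and 0.44, none of them called. Per3, a period gene and D-box target, fell by 0.85 in KO (adjusted p 0.042) and by 1.10 in WT (adjusted p 0.010). Nr1d1, which encodes the repressor REV-ERB alpha, fell by 1.55 in KO (adjusted p 0.0061), and its change in WT was -0.90 (adjusted p 0.083). Its other 2 probes gave -0.92 and 0.40 in KO, and neither was called.

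Arntl, the gene of the core activator Bmal1, read -0.20, -0.07, -0.09 and 0.24 on the KO Dex arrays, against -0.63, -0.04, -0.58 and -0.91 on the KO vehicle arrays. In WT it read 0.94, 1.24, 1.08 and 1.05 after dexamethasone, against 0.11, -0.21, 0.18 and -0.12 after vehicle. The WT Dex arrays stood above all other arrays. Arntl rose by 1.09 in WT (adjusted p 0.00082), and its change in KO was 0.51 (adjusted p 0.065). After dexamethasone Arntl was lower in KO than in WT (log2 difference -1.10, adjusted p 0.0024), where 2.79% of all probes were called. After vehicle the difference was -0.53 and not called (adjusted p 0.34). Averaged over treatments it was -0.82 (adjusted p 0.0019), where 1.62% of all probes were called. The difference of the 2 changes was -0.57 (adjusted p 0.33).

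Timeless fell by 1.57 in KO and by 0.73 in WT with its brightest probe, and its other probe gave -0.26 and -0.22, neither called. The casein kinase gene Csnk1e fell by 0.41 in WT with its brightest probe (adjusted p 0.034), while its other probe gave 0.50 (adjusted p 0.084), so the direction of the gene is uncertain. Per1 and Per2, period genes, gave -0.09 and 0.01 in KO and 0.29 and -0.04 in WT, with no call. Of 6 clock genes with known D-boxes, 2 fell in KO, beside 6.02% of all genes, and 1 in WT, beside 6.21%, and 0 rose in either.

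Of 14 other clock output genes 13 passed the filter, and 2 of them rose in each genotype, where 5.50% of all genes were called higher in KO and 6.19% in WT. Alas1, the first enzyme of haem synthesis, rose by 0.63 in KO (adjusted p 0.0065) and by 0.54 in WT (adjusted p 0.015), and its other probe gave 0.52 in KO (adjusted p 0.050) and 0.75 in WT (adjusted p 0.0067). Cdkn1a, which encodes the cell-cycle inhibitor p21, rose by 2.29 in KO and by 2.98 in WT. Pdxk, pyridoxal kinase and a known target of the PAR bZIP factors in liver and brain, fell by 0.53 in WT (adjusted p 0.010), with -0.29 in KO, not called. Its other probes gave -0.85 (adjusted p 0.0012) and 0.15 (adjusted p 0.54) in WT. In KO 0 of the 13 fell, and in WT Pdxk was the 1 that did, beside 6.02% and 6.21% of all genes called lower.

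**Figure D5:**
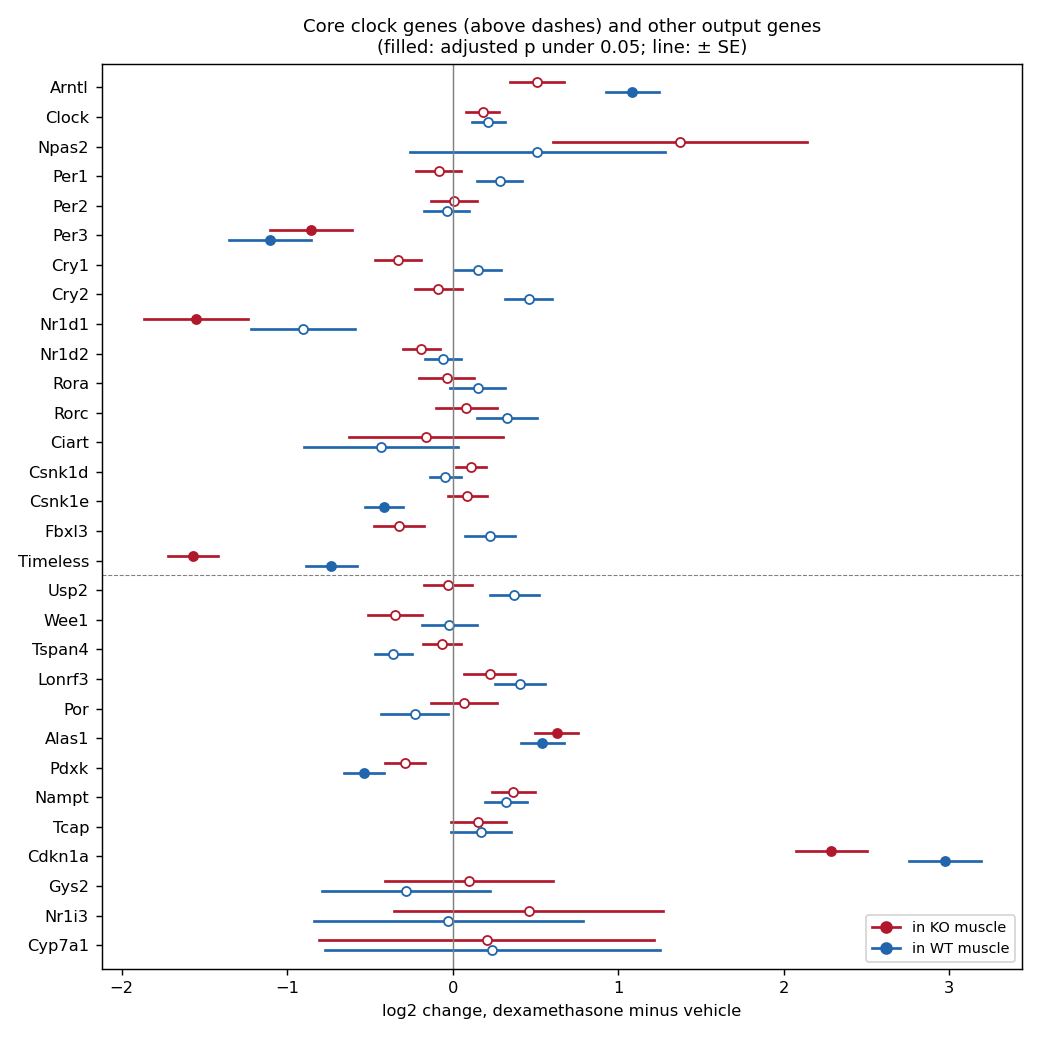
Log2 change with dexamethasone minus vehicle in KO and WT for 17 core clock genes (above the dashed line) and 13 other output genes (below it). Points are limma estimates of the brightest probe, filled where the adjusted p was under 0.05, and lines are ± SE. Arntl lies at 0.51 in KO and 1.09 in WT, Per3 at -0.85 and -1.10, and Cdkn1a at 2.29 and 2.98.

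Markers of other cells moved with some of these comparisons. With dexamethasone 4 of 9 macrophage markers were called lower in WT and 0 in KO. Of the endothelial markers, 3 of 5 were called lower in KO and 0 in WT. Beside these, 6.21% of all genes were called lower in WT and 6.02% in KO. Of 6 adipocyte markers 1 was called higher in each genotype, where 6.19% of all genes were called higher in WT and 5.50% in KO. No marker of neutrophils, lymphocytes, erythroid cells, fast fibres or skeletal muscle was called in either genotype. The macrophage median lay between -0.52 and -0.17 on WT Dex arrays, against 0.06 to 0.62 on WT vehicle arrays (log2, relative to the mean of all arrays), and the endothelial median between -0.27 and -0.03 on KO Dex arrays, against 0.14 to 0.39 on KO vehicle arrays. All 9 and all 5 markers were well above background on every array, and their part in the clock output changes was not tested. The slow-fibre markers had a median change of 0.49 in KO and 1.37 in WT with 0 of 8 called. Without the 2 arrays with raised neutrophil markers the changes in KO were -1.14 for Dbp, -0.44 for Hlf, -0.53 for Bhlhe40 and -1.46 for Bhlhe41, and in WT -1.32 for Dbp, -0.44 for Hlf and -1.12 for Bhlhe41, all called.

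Genes whose levels ran most like each factor were taken from 15136 genes by Pearson correlation (r) over the 16 arrays. These values hold the differences between groups as well as those between samples, and the correlation after subtracting each group's mean is given beside some of them. For Dbp the 3 most alike were C1qtnf2 (r 0.97), Mmp23 (0.97) and Slc41a3 (0.96), with 0.66, 0.85 and 0.74 after subtraction, and the 2 most opposite were Fam160a1 (-0.97) and Synj2 (-0.97). Hlf ran with Abca8b (0.97), Tpst1 (0.97) and Hs2st1 (0.97), and opposite to the lipocalin gene Lcn2 (-0.97) and Fkbp5 (-0.97), with -0.75 and -0.59 after subtraction. Tef ran with Phka1, a muscle phosphorylase kinase subunit (0.88), Urb2 (0.88) and Arhgap12 (0.88), and opposite to Nrcam (-0.95) and Cdkn1c (-0.91).

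Nfil3 ran with Agfg2 (0.98), Smcr8 (0.97) and Usp3 (0.97), and opposite to Gxylt2 (-0.97) and Cc2d2a (-0.96). Bhlhe41 ran with Opa3 (0.96), Kdm2b (0.96) and Cc2d2a (0.94), and opposite to Itpr2, an inositol trisphosphate receptor (-0.97), and Glul, glutamine synthetase (-0.96); after subtraction r was 0.61, 0.62, 0.31, -0.94 and -0.70 in the same order. Bhlhe40 ran with Dctd (0.88), Gstt3 (0.87) and Slc22a18 (0.87), and opposite to Dag1, dystroglycan (-0.88), and Zfp637 (-0.85). Among the 6 factors themselves only the brightest probe of each was used, so the second Nfil3 probe was not compared. Over the 16 arrays r was 0.94 between Dbp and Hlf, -0.85 between Dbp and Nfil3, 0.44 between Dbp and Tef and -0.61 between Tef and Nfil3. After group means were subtracted, these were 0.33, 0.52, -0.63 and -0.66 in the same order. The other pairs then lay between -0.26 (Tef and Hlf) and 0.44 (Hlf and Bhlhe41). These correlations share the arrays and their scaling, and are descriptions only.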

How the data were processed

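RNA of 16 mouse quadriceps samples was amplified and labelled with 1 dye, per the labels' protocols, and hybridised to Agilent arrays. The deposited scanner files hold spot intensity, made with Feature Extraction 10.7.3.1 on a grid of build mm9 per the file headers, background-subtracted and not normalized between arrays. A deposited table holds log2 values by the authors (column medians 6.85 to 6.87, same ranks as the scanner's median signal); no source used here states its centring or steps, and it served as an alternative.

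Processed signals were set on a log2 scale, and the 75th percentile of the array was subtracted. Control and outlier spots were dropped, and a probe was tested if it stood well above background on 4 or more of the 16 arrays. Probes were named through RefSeq (GRCm38.p6, another build than the files', so coordinates are those of its promoter table): 24844 of 41174 probes had a symbol. The brightest probe stood for a gene. In R 4.3.3, limma 3.58.1 fitted 4 group means to all 16 arrays, with eBayes and Benjamini-Hochberg adjustment over 32403 probes (two-sided, threshold 0.05), and was tested on simulated data. Alternatives were scaling (median, quantile), normexp, the deposited values, filters, slide and replicate blocks, the 2 compared groups alone, the mean of a gene's probes, and leaving out arrays. Normexp used the median spot signal in place of the mean signal. The arrays lay on 8 slides and were scanned on 2 days, with only WT Dex replicate 3 on the second. That array lay alone on its slide and had the lowest 75th percentile of the 16, 536.7. Its normexp values correlated with the main values at 0.784, the lowest of the 16 arrays, where the next lowest gave 0.923.

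The 6 genes, the clock lists and the marker lists were chosen with earlier results of these data known. Named genes are all probes of the 6, called or clock-defining genes of the clock lists, Klf15 and Fkbp5, and per factor the 3 most alike and 2 most opposite genes. The main fit did not treat samples as paired by replicate number. Same-numbered arrays of different groups correlated from -0.66 to 0.66 in their deviations. Differently numbered arrays were not compared, so this range cannot show whether the numbers pair samples. Replicates are numbered samples in the labels, which do not state that each was a separate animal, so p-values measure the spread between these samples.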

Additional observations from a re-analysis of the deposited data

Results flagged for a closer look

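In 40 comparisons of 1 array with the other 3 of its group, over 10 probes and 4 groups, 3 arrays stood apart by Dixon's test at 95%; chance alone gives about 1 in 20. Hlf was 1.46 on KO vehicle replicate 1, above 1.31 to 1.32 on the other 3 arrays. The Tef probe A_51_P450561 was -0.39 on WT Dex replicate 2, above -0.99 to -0.91 on the others, and -0.87 on WT vehicle replicate 1, below -0.68 to -0.65 on the others.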

How the results depend on the processing

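With the brightest probe of each, the Dbp and Nfil3 calls with dexamethasone, in KO, in WT and averaged, held under every alternative run; the second Nfil3 probe lost its WT call with normexp (1.27, adjusted p 0.052). Dbp ranged from -1.24 to -1.04 in KO and from -1.41 to -0.995 in WT, and Nfil3 from 1.22 to 1.49 in KO and from 1.41 to 1.76 in WT. Of 1179 alternative values over 42 results, 1108 kept direction and side of the threshold, 18 lost the call, 12 gained one and 41 changed sign; the cause was not tested. With normexp 4 of the 10 probes were called in KO and 2 in WT, and the count over all probes is not given here. The fixed slide block called 6 of the 10 in KO and 4 in WT. Over all 32403 probes it called 3446 in KO, against 3372 in the main fit, and 1147 in WT, against 3873. Hlf was lost with normexp in KO (adjusted p 0.15) and WT (0.17), Bhlhe41 in WT (-0.59, 0.61) and Bhlhe40 in KO (0.57). Bhlhe40 in KO was also lost with median scaling (0.051) and with only the 2 groups compared (0.079). Averaged over genotypes it was lost with median scaling (0.083), normexp (0.23) and the fixed slide block (0.051). Tef in KO gained a call with a filter requiring all 16 arrays (0.038). Without KO vehicle replicate 4, 1 probe was called for KO against WT after vehicle and 1 in the average; leaving out other arrays gave 0. With 1 array left out, 6 to 8 of the 10 probes were called in KO and 6 in WT, and the counts over all probes in these runs are not given here. The replicate block left the counts of member probes called unchanged (7 in KO, 6 in WT, 0 for KO against WT). Over all probes it called 2685 in KO, against 3372 in the main fit, and 2995 in WT, against 3873. With slide as a random block the difference of changes was called for 715 of 32403 probes, against 0, and for 0 of the 10. That fit put the correlation of arrays on the same slide at 0.562, while the main fit took arrays as independent. Dexamethasone calls over all probes then numbered 6649 in KO, against 3372, and 5569 in WT, against 3873. Of the 10 member probes it called 8 in KO and 6 in WT.

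All values that changed sign were uncalled. With median scaling, which moved the median of all probes in WT to 0.17 from -0.07 and the share of higher calls to 80.8%, Tef in WT was 0.17. KO against WT after dexamethasone became -0.14 for Dbp and -0.05 for Bhlhe41, and after vehicle 0.02 for Dbp and 0.044 for Hlf; the difference of changes became -0.16 for Dbp and -0.27 for Hlf. With quantile normalization Hlf after dexamethasone was 0.009, and Dbp was 0.018 after vehicle and 0.06 averaged. With normexp, which moved the median of all probes by -0.27 between genotypes, after dexamethasone Hlf was 0.053 and Bhlhe41 -0.14, after vehicle Dbp was 0.059 and Hlf 0.04, and averaged Dbp was 0.13, Hlf 0.046 and Tef 0.058. The deposited values gave 0.01 for Dbp averaged. With the fixed slide block Bhlhe41 after dexamethasone was -0.01, Tef after vehicle -0.05, Dbp averaged 0.081 and the Hlf difference of changes -0.027; with the random block Tef after vehicle was -0.017 and Dbp averaged 0.002. Without the 2 arrays with raised neutrophil markers Dbp averaged 0.004. The mean of all probes gave 0.029 for Tef averaged, and differences of changes of 0.017 for Nfil3 and 0.19 for Bhlhe41. With 1 array left out, KO against WT ranged for Dbp from -0.052 to 0.126 after dexamethasone and from -0.075 to 0.02 averaged, for Tef after vehicle from -0.059 to 0.079, and the Hlf difference of changes from -0.012 to 0.083.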
